A study of Mus musculus with 6 samples.

Results

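The genes described here make and move cholesterol and fatty acids in the cell. They were followed in RNA from the pancreas of mouse embryos that lacked Sox4, a transcription factor of the SoxC family, with wild-type littermates as controls, at embryonic day 12.5. A list of 37 gene symbols was matched to array probes that carry 1 gene symbol in the platform's annotation. In all, 31 probes of 20 listed genes matched, of 21888 probes on the arrays. Hmgcs1, Sqle, Idi1, Fdps, Sc5d, Dhcr7, Srebf1, Srebf2, Scap, Scd2, Fasn, Acaca, Acly, Mvd, Acat2, Elovl6 and Soat1, the other 17 symbols, matched none and were not analysed here.

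Each of 6 spotted arrays carried both RNAs, wild type in channel 1 and Sox4 KO in channel 2, and gave 1 log2 ratio per probe. The Sox4-/- embryos were homozygous for a knockout of the gene, and the wild-type embryos were littermates, so both RNAs share litters and stage. Per the label of arrays 1 and 2, the pancreases went into 2 pools before RNA was isolated and amplified, and the other labels do not repeat this. The 6 arrays may therefore be repeats of 1 pool per genotype, and p-values here then rest on a spread among arrays that may be technical only. The ratio is read as knockout over wild type, which is likely from the channel order but not stated; with the opposite reading every sign below turns. Ratios hold no level, so the labelled tissue could not be checked by the level of its markers. The 2 Sox4 probes had mean log2 ratios of -0.03 ± 0.25 and -0.09 ± 0.13 (SD, n = 6 arrays), with adjusted p of 0.892 and 0.446. The sources used here do not place them inside or outside the deleted part, so they do not check the labels. Arrays had 439 to 1654 missing values and 40 to 257 values at a fixed ceiling, and their number limits the precision.

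Cells build cholesterol from acetyl-CoA through mevalonate, isoprenoid units, squalene and lanosterol. When membranes of the endoplasmic reticulum are short of sterol, Scap carries the SREBP transcription factors, encoded by Srebf1 and Srebf2, to the Golgi for cleavage, and the released fragments raise transcription of synthesis genes. Insig proteins hold the Scap and SREBP complex back when sterol is plentiful. Fatty acids are built from the same acetyl-CoA and are then lengthened and desaturated. A growing epithelium uses both for new membrane.

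Across these genes, 1 of 20 passed the test between the RNAs, and it was Stard4, a soluble carrier that moves cholesterol between membranes, which was lower in the RNA labelled knockout. Of 31 probes, 30 had values on at least 4 arrays and were tested, covering all 20 genes. Of these, 1 passed an adjusted p of 0.05 in limma, under 0, which is 3.33% of the 30, against 5.49% of all 21247 tested probes. In the direction under 0 alone the background was 3.53%. Above 0 no probe of these genes passed, against 1.96% of all probes. At an unadjusted limma p under 0.05 stood 11 of the 30 probes, 36.7%, against 27.6% of all probes. Of the 11, 6 were above 0 and 5 under 0, where all probes had 13.6% and 14%. Means above 0 were found at 14 of the 30 probes, 46.7%, against 53.7% of all. The share of called probes lay under the background at the adjusted threshold and above it at the unadjusted one. Neither gap was tested, and with 30 probes no difference from the background is read from them. By gene, 5% of all genes had at least 1 probe past the threshold under 0, beside 1 of these 20. The median over the 20 gene means was 0.09, between -0.66 and 0.68, beside a median of 0.05 over all genes with 1 symbol. No mean of a probe reached 1 in size, which is a fold of 2. The median size of a probe mean, its sign left aside, was 0.20 for these probes and 0.20 for all tested probes.

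**Figure D1:**
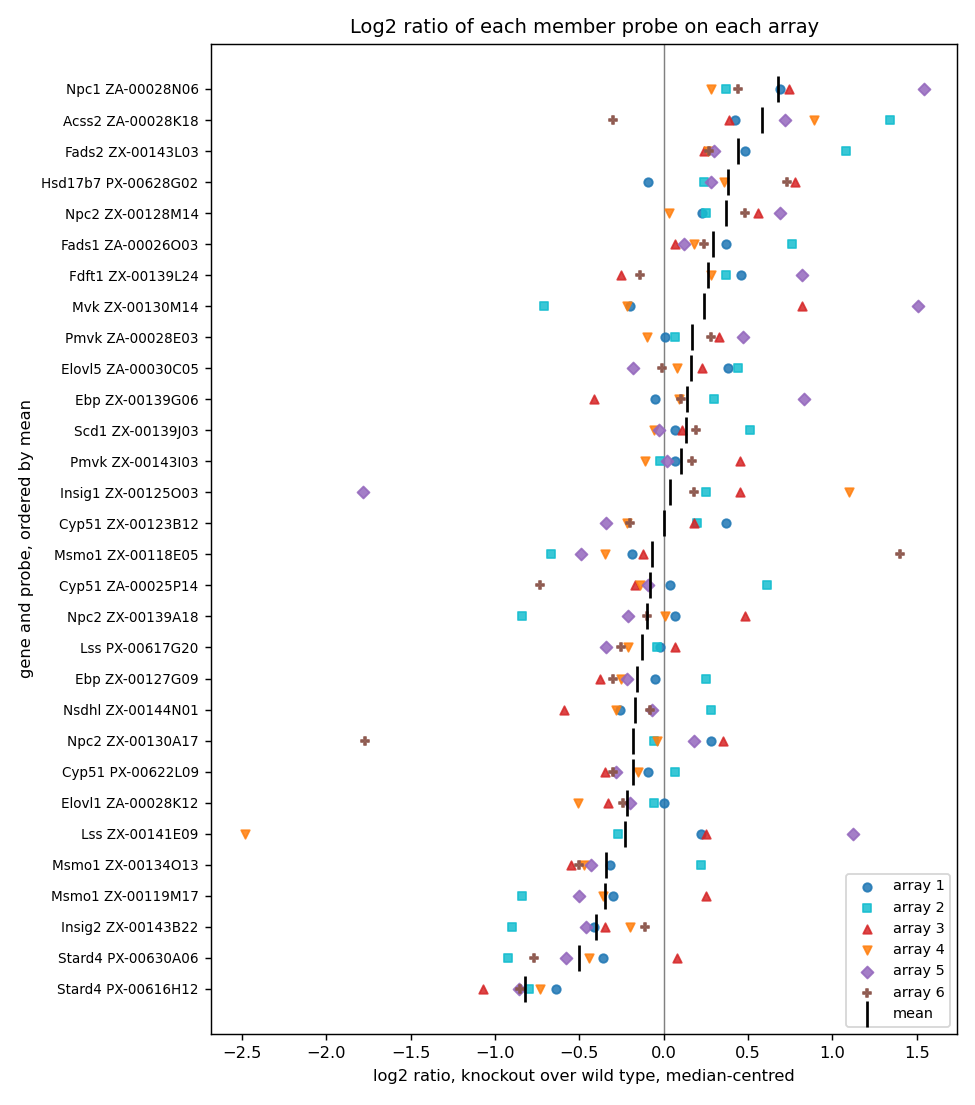
Log2 ratios (x axis, knockout over wild type, centred on each array's median) of the 30 tested probes (y axis, gene and probe, ordered by mean), with 1 symbol per array and a vertical bar at the mean. The lower Stard4 probe has all arrays between -1.07 and -0.64, while most other probes straddle 0 and single arrays of Lss, Insig1, Npc2 and Msmo1 stand far from the rest.

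**Figure D2:**
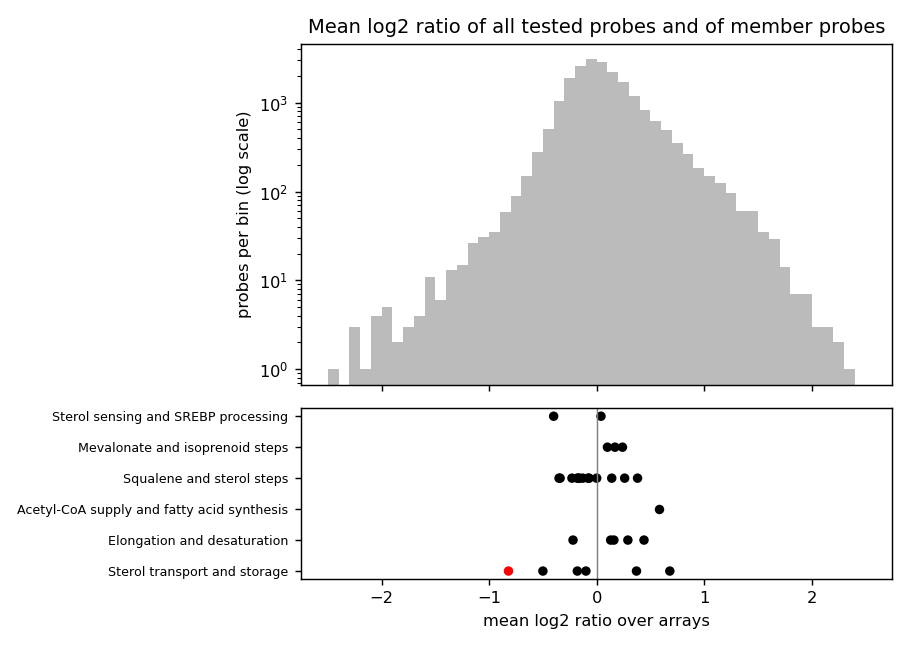
Upper panel, number of all 21247 tested probes (y axis, log scale) by mean log2 ratio (x axis); lower panel, the 30 probes by role, with the probe past the threshold in red. The 30 means lie between -0.82 and 0.68, within the range of all probes, and the red probe is that of Stard4.

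Promoter windows are shown here, because most of these genes share the letters of 1 regulatory motif. RefSeq promoter windows (GRCm38.p6, 250 bases before to 50 after a gene start) matched 15 of the 20 genes by symbol, in 19 windows. The letters CCAAT, on either strand, are those of the box bound by NF-Y, a factor known to act beside SREBPs. They stood in 14 of the 19 windows and in at least 1 window of 14 of the 15 genes, against 37.4% of all windows and 41.1% of all genes with a window. Fads2 was the 1 gene with an entry and no match. The letters CACGTG, an E-box that SREBPs can also bind, stood in windows of Elovl5, Hsd17b7 and Insig1, 3 of 15 genes, against 8.09% of all genes. The letters TCACNCCAC, a form of the sterol response element searched on both strands, stood in 0 of 19 windows, against 1.24% of all. At so low a share, 19 windows are too few to show a lack of these letters. Other forms of the element were not searched. Matches of these motifs can overlap at their ends. A match describes letters in a window and is no evidence of binding. The following 4 windows are printed because these genes hold the CCAAT letters and their log2 ratios, given further down, lay above, near and under 0; they were chosen after these ratios were seen. Capitals mark CCAAT, or ATTGG where the match is on the other strand.
Acss2, chr2:155517793-155518092, plus strand: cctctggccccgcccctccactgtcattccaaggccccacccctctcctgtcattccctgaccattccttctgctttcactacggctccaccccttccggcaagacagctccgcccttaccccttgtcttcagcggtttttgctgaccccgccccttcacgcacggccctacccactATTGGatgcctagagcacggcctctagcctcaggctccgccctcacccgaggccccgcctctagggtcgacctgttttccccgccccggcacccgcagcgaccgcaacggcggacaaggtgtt
Hsd17b7, chr1:169969156-169969455, minus strand: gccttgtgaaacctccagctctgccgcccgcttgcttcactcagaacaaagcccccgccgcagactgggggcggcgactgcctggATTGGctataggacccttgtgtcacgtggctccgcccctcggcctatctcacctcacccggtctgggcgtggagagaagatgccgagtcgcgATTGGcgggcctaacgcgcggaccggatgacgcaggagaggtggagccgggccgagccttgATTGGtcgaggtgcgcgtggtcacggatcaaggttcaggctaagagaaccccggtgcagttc
Cyp51, chr5:4104648-4104947, minus strand: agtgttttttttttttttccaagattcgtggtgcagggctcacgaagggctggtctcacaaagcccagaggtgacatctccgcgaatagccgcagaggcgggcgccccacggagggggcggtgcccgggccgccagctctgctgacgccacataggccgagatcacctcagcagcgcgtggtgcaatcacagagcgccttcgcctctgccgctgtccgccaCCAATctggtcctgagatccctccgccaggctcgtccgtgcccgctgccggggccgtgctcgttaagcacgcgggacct
Insig2, chr1:121332540-121332839, minus strand: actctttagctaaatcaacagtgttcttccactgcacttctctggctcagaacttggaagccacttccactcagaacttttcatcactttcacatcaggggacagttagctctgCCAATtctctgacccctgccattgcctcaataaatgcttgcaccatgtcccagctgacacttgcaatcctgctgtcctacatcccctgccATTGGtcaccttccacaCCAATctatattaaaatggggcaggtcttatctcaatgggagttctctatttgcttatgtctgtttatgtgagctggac
Acss2 and Cyp51 hold 1 match each, starting 73 and 29 bases before the gene start. Hsd17b7 holds 3, at 165, 73 and 12 bases before it, and Insig2 holds 3, at 136, 46 and 29 bases. The 2 other Insig2 windows held none. Of the 14 genes with these letters, 7 had mean log2 ratios above 0 and 7 under 0.

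Among the genes of sterol transport, Stard4 fell at 1 of 2 probes, while the lysosomal genes Npc1 and Npc2 had means above 0 at their leading probes without passing the test. The Stard4 probe PX-00616H12 had log2 ratios of -0.64, -0.80, -1.07, -0.73, -0.86 and -0.85 on arrays 1 to 6. All 6 arrays were under 0 and lay close together. Its mean was -0.82 ± 0.15 (SD, n = 6), a 1.77-fold lower level in the RNA labelled knockout, with a limma adjusted p of 0.0126. The probe stood at percentile 0.965 of all tested means. The second Stard4 probe, PX-00630A06, had -0.36, -0.92, 0.08, -0.44, -0.58 and -0.77. Here 5 of 6 arrays were under 0, and array 3, the lowest at the first probe, was the one above 0. Its mean was -0.50 ± 0.35 (n = 6), with a 95% interval of -0.82 to -0.18 and an adjusted p of 0.0760, so it did not pass. The difference between the 2 probes was -0.32 ± 0.43, with an exact two-sided sign-flip permutation p of 0.0938 and 0.406 after adjustment over 13 pairs of probes of 1 gene. With the probes averaged to 1 value per gene, Stard4 was at -0.66 ± 0.16, with arrays from -0.86 to -0.49 and an adjusted p of 0.0182. It was the 1 gene of 20 past the threshold in that fit, 5%, against 5.82% of 10818 genes, 3.47% under 0 and 2.36% above 0. In these bulk samples, fewer cells that express a gene and less of its RNA per cell cannot be told apart.

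The Stard4 call at PX-00616H12 depended on which arrays were used, while its mean stayed between -0.88 and -0.72 in every alternative fit. Without array 1, 4, 5 or 6 the adjusted p was 0.0507, 0.0607, 0.0684 or 0.0656, and the mean stayed between -0.86 and -0.82. Without array 2 or 3 the mean was -0.83 or -0.78, with a limma adjusted p of 0.0267 or 0.0414. With the 2 array sets described below as a random block, the adjusted p was 0.0609.

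Per the probe names, which give a source plate and a well, PX-00616H12 sits next to a probe of Afp, PX-00616G12, on plate PX-00616. Afp encodes alpha-fetoprotein, a plasma protein made by yolk sac and fetal liver, and its probe there had the values -1.92, -1.63, -2.36, -2.15, -2.13 and -2.11, with array 3 the lowest as for Stard4. The other 3 wells beside Stard4, those of Selenoi, Cep192 and Trappc5, had means of -0.31, -0.21 and -0.17, and none passed the threshold. Array 3 was also the lowest at Selenoi (-0.46) and Cep192 (-0.50), but not at Trappc5. Around the 3 low Afp probes, the 10 adjoining wells other than that of Stard4 had means of -0.31 to 0.22, 6 of them under 0, and 0 passed. Any part of well position in the Stard4 ratio was not tested. The second Stard4 probe lies on another plate, PX-00630, where its neighbours had means of 0.08, 0.00 and -0.01.

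**Figure D3:**
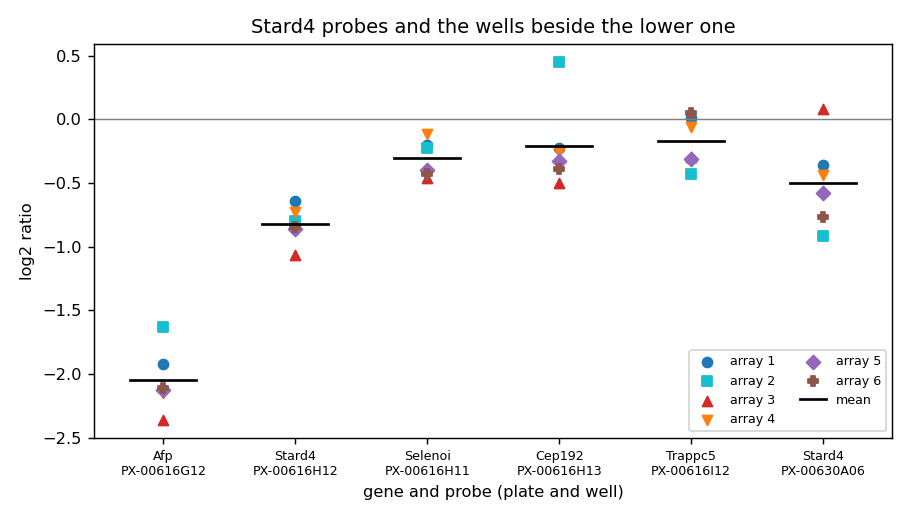
Log2 ratio (y axis) on each array of the 2 Stard4 probes, of the Afp probe beside the lower one and of the 3 other adjoining wells (x axis, gene and probe), with a bar at the mean. Stard4 PX-00616H12 at -0.82 lies between Afp at -2.05 and the other neighbours at -0.31 to -0.17, and the Stard4 probe on the other plate is at -0.50.

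Npc1, a membrane protein that lets cholesterol leave late endosomes and lysosomes, had ratios of 0.69, 0.37, 0.74, 0.28, 1.54 and 0.44. All arrays were above 0, and array 5 stood apart at the top. The mean of 0.68 ± 0.46 (n = 6) was the highest among these genes, with an adjusted p of 0.0645, and was 0.51 without array 5. Npc2, its soluble lysosomal partner, had 0.23, 0.25, 0.56, 0.03, 0.69 and 0.48 at probe ZX-00128M14. All 6 were above 0, with a mean of 0.37 ± 0.25 and an adjusted p of 0.0790. Its other probes were at -0.18 ± 0.80 and -0.10 ± 0.43, so the probes of Npc2 lay on both sides of 0. The leading probe was higher than ZX-00139A18 on 6 of 6 arrays, by 0.47 ± 0.45. The exact permutation p of that difference was 0.0312, the smallest that 6 arrays allow, and 0.406 adjusted over the 13 pairs.

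Of the regulators of sterol sensing, Insig1 and Insig2 were measured, and neither passed. Insig2 had ratios of -0.41, -0.90, -0.35, -0.20, -0.46 and -0.11. All arrays were under 0, with array 2 the lowest. The mean was -0.40 ± 0.28 (n = 6), with a 95% interval of -0.67 to -0.14 and an adjusted p of 0.0801. It passed under 1 alternative, with arrays scaled to one spread, at -0.38 and an adjusted p of 0.0409. Insig1, which SREBPs themselves induce, had 0.25, 0.45, 1.10, -1.78 and 0.18 on arrays 2 to 6. Its 5 arrays ranged over both sides of 0, with a mean of 0.04 ± 1.08, and gave a 95% interval of -0.96 to 1.03. A change of the Insig1 RNA was not detectable at this spread.

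Early steps of the pathway showed no called change. Mvk and Pmvk, the kinases that act on mevalonate and on its phosphate, had means of 0.24 ± 0.90 (n = 5) for Mvk and 0.17 ± 0.22 and 0.10 ± 0.19 (n = 6) at the Pmvk probes. Mvk was between -0.71 and -0.20 on arrays 1, 2 and 4 and at 0.82 and 1.51 on arrays 3 and 5. The Pmvk intervals, -0.05 to 0.40 and -0.11 to 0.31, were narrower than that of Mvk, -0.59 to 1.07.

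The steps from squalene onwards had the most probes, 13 of 7 genes, and 10 of these 13 means were under 0. The other 3 were above 0, where all probes had 53.7%. By gene, 5 of the 7 means were under 0, that of Ebp at -0.01, beside 4611 of 10818 over all genes with 1 symbol. The probe count depended on centring. Without centring, Cyp51 ZA-00025P14, Cyp51 ZX-00123B12 and Msmo1 ZX-00118E05 turned to 0.02, 0.10 and 0.03. None of the 13 probes passed, and 2 had an unadjusted limma p under 0.05, 1 on each side. Hsd17b7, the ketosteroid reductase of the pathway, had -0.09, 0.24, 0.78, 0.36, 0.28 and 0.73. Here 5 of 6 arrays were above 0, for a mean of 0.38 ± 0.33 and an adjusted p of 0.118. Msmo1, the methylsterol oxidase that acts before it, had -0.32, 0.22, -0.55, -0.47, -0.43 and -0.50 at probe ZX-00134O13. All but array 2 were under 0, and the mean was -0.34 ± 0.29 with an adjusted p of 0.120. Without array 2 this probe was at -0.45 and passed, with an adjusted p of 0.0360, and on arrays 3 to 6 alone it was at -0.48 with 0.0466. The other Msmo1 probes were at -0.35 ± 0.40 (n = 5) and -0.07 ± 0.75 (n = 6). In the last of these, array 6 read 1.40, and leaving it out gave a mean of -0.37.

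Fdft1, squalene synthase, was at 0.26 ± 0.40, with arrays from -0.25 to 0.82, and at 0.14 without array 5. Lss, which closes squalene epoxide into lanosterol, was at -0.13 ± 0.16 at one probe and -0.23 ± 1.36 (n = 5) at the other, where array 4 was at -2.48 and array 5 at 1.12. Cyp51, the demethylase of lanosterol, had 3 probes at -0.18 ± 0.16, -0.08 ± 0.43 and -0.0022 ± 0.29. Nsdhl, a sterol dehydrogenase of the pathway, was at -0.17 ± 0.29. Ebp, a sterol isomerase, was at -0.16 ± 0.23 and 0.14 ± 0.41, the latter at 0.01 without array 5. Among these probes, the 95% interval of Cyp51 PX-00622L09 ran from -0.37 to 0.01 and that of Lss PX-00617G20 from -0.32 to 0.06. Over all these genes, 12 of the 30 probes had a 95% interval within 0.5 of 0, and 24 of 30 within 1 of 0. A difference of 2-fold lay outside the interval at those 24 probes.

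Of the genes that supply acetyl-CoA and start fatty acid synthesis, Acss2 was measured. Acss2, which makes acetyl-CoA from acetate, had 0.42, 1.34, 0.39, 0.89, 0.72 and -0.30. Array 6 alone was under 0, and array 2 was the highest. The mean was 0.58 ± 0.55 (n = 6), with a 95% interval of 0.10 to 1.05 and an adjusted p of 0.127.

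Desaturases had means above 0 without passing. Fads2, the first desaturase in the making of long polyunsaturated fatty acids, had 0.48, 1.08, 0.24, 0.26, 0.30 and 0.27. All arrays were above 0, and array 2 stood apart at the top. Its mean was 0.44 ± 0.33, a ratio of 1.36, with an adjusted p of 0.0899. Fads1, which acts later on the same chains, had 0.37, 0.76, 0.07, 0.18, 0.12 and 0.24, again all above 0 with array 2 the highest. The mean was 0.29 ± 0.25 with an adjusted p of 0.136. A second Fads1 probe had a value on 1 array, 0.60, and was not tested. Scd1, which makes monounsaturated fatty acids, was at 0.13 ± 0.20. Among the elongases, Elovl5 was at 0.16 ± 0.24. Elovl1, which extends saturated chains to very long ones, had a value on array 1 that rounds to 0, and -0.06, -0.33, -0.51, -0.20 and -0.24 on arrays 2 to 6. All 6 were under 0, with array 4 the lowest, for a mean of -0.22 ± 0.18 and an adjusted p of 0.155. Counted over all 30 probes, 4 had every measured array above 0 and 3 had every measured array under 0, 13.3% and 10%, against 10.2% and 12.3% of all tested probes.

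The arrays fall into 2 sets by their labels, since only those of arrays 1 and 2 carry protocol text, and the members were compared between them. The coefficient of arrays 3 to 6 minus arrays 1 and 2 had an unadjusted limma p under 0.05 at 3 of 30 probes, 10%, against 15.4% of all probes. After adjustment 0% of all probes passed. The 3 were Fads2 (0.78 on arrays 1 and 2, 0.27 on arrays 3 to 6), Fads1 (0.56 and 0.15) and Ebp ZX-00127G09 (0.10 and -0.29). For Stard4 PX-00616H12 the set means were -0.72 and -0.88, and the difference of -0.16 had an adjusted p of 0.562. Mvk had the widest gap, -0.45 against 0.70, with an adjusted p of 0.360.

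**Figure D4:**
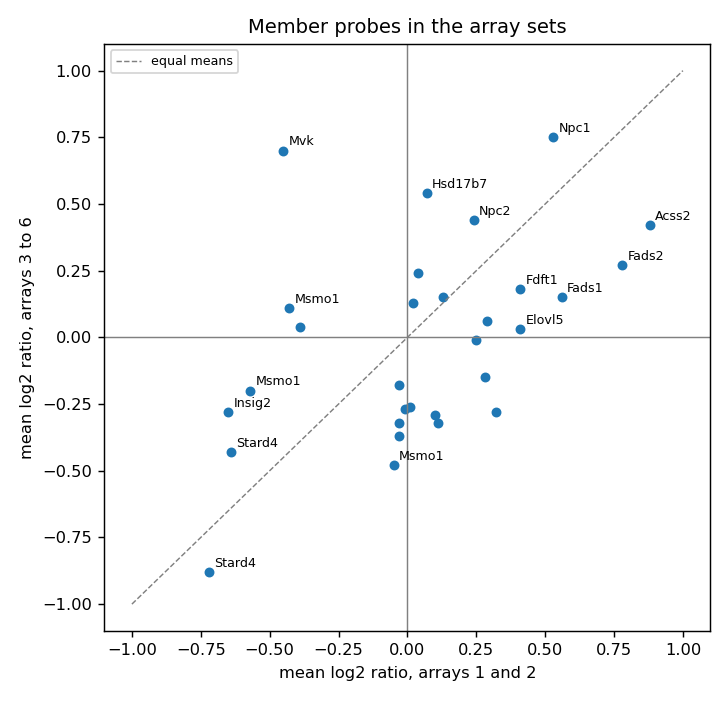
Mean log2 ratio on arrays 3 to 6 (y axis) against arrays 1 and 2 (x axis) for the 30 tested probes, 1 point per probe, with a dashed line of equal means. Both Stard4 probes and Insig2 lie under 0 in both sets, Npc1, Acss2 and Fads2 above 0 in both, and Mvk changes side.

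A wider list of 58 genes of sterol and lipid handling, none of them in the list above, had 25 measured genes with 38 tested probes. Of these probes 4 passed under 0, 10.5%, and 2 above 0, 5.26%, against 3.53% and 1.96% of all probes. With 1 value per gene, 2 of the 25 genes passed under 0, 8%, and 0 above 0, against 3.47% and 2.36% of all genes, and these were Tmem97 and Rnf139. Tmem97, a sterol-regulated protein of the endoplasmic reticulum and lysosome, fell with a mean of -0.52 ± 0.19 and an adjusted p of 0.0341. Ggps1, which makes the isoprenoid geranylgeranyl diphosphate, fell at 1 of 3 probes, at -0.47 ± 0.16 (adjusted p 0.0345), with the others at -0.21 and -0.16 and the gene at an adjusted p of 0.0525. Rnf139, a ubiquitin ligase of the endoplasmic reticulum, fell at -0.41 ± 0.18 (adjusted p 0.0467). Hacd1, of the elongation cycle, fell at one probe at -0.50 ± 0.10 (adjusted p 0.0251) and was at 0.40 ± 0.69 at the other. Each of these 4 probes was under 0 on all 6 arrays. Above 0, Cyb5r3, a reductase that feeds electrons to lipid desaturation, was at 0.57 ± 0.22 (adjusted p 0.0344) at one probe and -0.10 at the other. Dgat2, which makes triglyceride, was at 1.19 ± 0.49 (n = 4, adjusted p 0.0486) at one probe and -0.34 at the other. All 4 ratios of the upper Dgat2 probe were quotients of whole numbers up to 20. Ratios of this kind made up 21.6% of the values of the 30 probes and 22.6% of all values tested. Among the 30, Insig1 had 5 of 5, Elovl1 4 of 6, Lss ZX-00141E09 3 of 5, and Npc1, Acss2 and Fdft1 3 of 6 each. The remaining probes had 0 to 2. The median over the 25 gene means was -0.02, with 11 above 0 and 14 under 0. The calls of this list are from the fit on all 6 arrays. Without array 1, 4, 5 or 6, the number of all probes that passed was 18, 11, 10 or 13, and this list was not read there.

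Markers of other cells were counted beside these values. Over all genes, 5% had at least 1 probe past the threshold under 0 and 3.25% above 0. Of 12 measured liver genes, 6 had such a probe under 0, 50%, and 0 above 0, and 5 passed with 1 value per gene. Among them were Afp (-2.06 ± 0.22), Fgb (-1.12 ± 0.26) and Ambp (-0.77 ± 0.10), and the list median per array lay between -0.66 and -0.32. Afp passed at 3 of 4 probes, with the other at 0.01 ± 0.35. Alb, at -0.29 ± 0.12, did not pass, and 4 of the 12 genes had means over their probes above 0, up to 0.13. Stard4 was lower in the same RNA, and the part of the liver genes in its ratio was not tested. Of 5 measured genes of steroidogenic cells, which take up and convert cholesterol, 2 passed under 0, 40%, Hsd3b1 at -2.27 ± 0.59 and Mrap at -0.34 ± 0.13. Star, which brings cholesterol into mitochondria, was at -0.70, -0.05 and 0.35 at its probes, and Nr5a1, which defines these cells, at -0.13 ± 1.34. Fdx1, which passes electrons to steroid-making enzymes, was at 0.46 ± 0.88 (n = 4), the 1 gene of the list with a mean above 0. The list median per array lay between -1.18 and 0.12, and the part of these cells in the ratios above was not tested. Among other lists, Cpa1 passed under 0 of 6 pancreatic epithelium genes, 16.7%, and C1qa of 4 macrophage genes, 25%, both also with 1 value per gene. Of 3 neuron genes, Tubb3 passed above 0 at 1 of 3 probes and Elavl4 at 1 of 4. Of 4 erythroid genes, Hba-a1 passed above 0 at 1 of 17 probes, of which 5 had means above 0. With 1 value per gene, 0 neuron and 0 erythroid genes passed in limma, at 0.23 for Tubb3, 0.46 for Elavl4 and -0.05 for Hba-a1, with unadjusted p of 0.00900, 0.0260 and 0.487. None of 5 mesenchyme genes passed in limma, with 1 of their 9 probes at an unadjusted p under 0.05, and no endothelium gene on the list was measured.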

How the data were processed

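The authors' deposited table holds log2 ratios of the 2 channels of each array, a base read from its ceiling value of 16.61, the log2 of 100000. The sources used here do not state the scanner, background correction, normalization or dyes. Ceiling values were treated as missing, and each array was centred on its median. Probes were named from the platform annotation, and symbols were updated through the Entrez IDs of RefSeq genes. Of 21888 probes, 18388 had 1 symbol, 66 several and 3434 none. Probes with values on at least 4 arrays, 21247, entered 1 fit with an intercept (limma 3.58.1 under R 4.3.3, lmFit and eBayes). The test was two-sided, p-values were adjusted over all of these probes by Benjamini-Hochberg, and the threshold was 0.05. The fit was run on simulated data with normal noise drawn independently for each array. That check cannot cover arrays that repeat 1 pool, so it does not vouch for the calls. Intervals are limma's, at 95%. Figures used matplotlib 3.10.9.

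The genes, lists, tests and alternatives were chosen with earlier results of these data known. All listed genes are named, with every array for probes past the threshold and for the leading probe of genes at an unadjusted p under 0.05. From the wider list, genes with a probe past the threshold are named. Lists of liver, steroidogenic, pancreatic epithelium, mesenchyme, neuron, endothelium, macrophage and erythroid genes were counted. The wells around Afp and the printed promoters were chosen after seeing the data.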

Additional observations from a re-analysis of the deposited data

Results flagged for a closer look

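For each tested probe, and for the median of these probes per array, the gap between the most extreme array and its nearest neighbour was set against the full range. Of 31 such measures, 5 had 1 array standing apart, where the nominal rate for normally distributed values is about 1 in 20. The rule was not run on all probes, so the share among them is unknown. The count is therefore not read as a trait of these genes. Array 2 was the extreme one at Fads2 ZX-00143L03, with 1.08 while the remaining arrays spanned 0.24 to 0.48. It was also extreme at Msmo1 ZX-00134O13, with 0.22 while they spanned -0.55 to -0.32. Array 6 read 1.40 at Msmo1 ZX-00118E05, where the remaining arrays spanned -0.67 to -0.12. It read -1.77 at Npc2 ZX-00130A17, where they spanned -0.06 to 0.35, and the mean there went from -0.18 to 0.14 when it was left out. Npc1 had 1.54 on array 5, and 0.28 to 0.74 elsewhere.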

How the results depend on the processing

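Each array holds both RNAs as 1 ratio, so the test of these ratios against 0 is paired by array. The arrays form 1 group. Against 1166 calls over all probes, there were 1786 with arrays scaled to one spread, 2402 with array weights and 694 with the array set as a term. With the set as a random block there were 13. Arrays 3 to 6 alone gave 599 (13 there with probes of at least 3 values, an alternative chosen after seeing the data). Leaving out array 1, 2, 3, 4, 5 or 6 gave 18, 1072, 45, 11, 10 or 13. The shares of all probes given above are those of the fit on all 6 arrays. Without centring, 67.5% of calls were above 0, against 35.7%, as the median of all probe means moved from 0.03 to 0.13; the median of the gene means described here moved from 0.09 to 0.20. Of the 30 probes, 3 in 2 genes passed under 0 with scaling (both of Stard4, and Insig2) and with array weights (both of Stard4, and Msmo1), 2 in 2 genes on arrays 3 to 6 alone, 0 in 0 genes with the random block and on arrays 3 to 6 with at least 3 values, and 0 to 2 with 1 array left out. Above 0, 1 probe of 1 gene passed with scaling (Fads2), and 1 with values on all 6 arrays or without probes of mostly small-number quotients (Npc1 in both). With 1 value per gene, Stard4 alone passed. The median of the gene means stayed within 0.03 to 0.20 and kept its sign.

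With 1 array left out, the mean moved by over 1.5 times or changed sign at 15 of the 30 probes. The signs that turned belonged to 8 probes past no threshold under any of these alternatives, and the cause was not tested. Without centring, Cyp51 ZA-00025P14 was at 0.02, Cyp51 ZX-00123B12 at 0.10, Msmo1 ZX-00118E05 at 0.03 and Npc2 ZX-00139A18 at 0.0032. With the set as a term the Cyp51 probes were at 0.02 and 0.07, and with it as a random block the latter was at 0.03. On arrays 3 to 6, with either minimum, Insig1 was at -0.01, Msmo1 ZX-00118E05 at 0.11 and Npc2 ZX-00139A18 at 0.04. With 1 array left out, means ranged from -0.22 to 0.05 for Cyp51 ZA-00025P14, -0.08 to 0.07 for Cyp51 ZX-00123B12, -0.23 to 0.49 for Insig1, -0.57 to 0.33 for Lss ZX-00141E09, -0.37 to 0.05 for Msmo1 ZX-00118E05, -0.08 to 0.48 for Mvk, -0.28 to 0.14 for Npc2 ZX-00130A17 and -0.22 to 0.05 for Npc2 ZX-00139A18. Signal over background is unknown, and the number of arrays limits the precision.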

Other observations

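Wells beside other leading probes were read in the same way. Beside Insig2 ZX-00143B22, at -0.40, the 4 adjoining wells had means of 0.16, -0.60, -0.21 and -0.44, of which an unnamed probe (-0.60 ± 0.08, limma adjusted p 0.0193) and Meg3 (-0.44 ± 0.22, adjusted p 0.0497) passed. Beside Npc1 they had means of -0.07, -0.07, -0.02 and 0.00. Beside Acss2 they had -0.08, -0.27, -0.14 and 0.49, and none of these passed. Wells that passed were not particular to Insig2. Beside Lss PX-00617G20, at -0.13, 4833408D11Rik (-0.35, limma adjusted p 0.0464) and Smap1 (-0.36, adjusted p 0.0422) passed. Any part of well position in these ratios was not tested.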
